A study of Bos taurus with 6 samples.

Results

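Subcluster 3 is one of the 4 groups into which the authors divided the T-cells of distal pulmonary arteries (dPAs) of calves. Its members are the 173 of 877 T-cells that carry the number 3 in the subcluster column deposited with the cells. The study describes this subcluster as enriched in CD8+ effector T-cells, subclusters 1 and 2 as CD4+, and gives no such name to subcluster 4. The table of expression values has 16514 rows, 1 for each gene, and it does not say which gene a row stands for. The CD8 label could therefore not be checked against CD3E, ZAP70 or CD8A, and the cells are called subcluster 3 throughout. For the same reason no gene is named and no sequence is shown, and rows are described by their rank and by their values.

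CD8+ T-cells are the cytotoxic arm of adaptive immunity. They recognize peptides presented on MHC class I molecules, which nearly all nucleated cells carry, and kill the presenting cell with perforin and granzymes or act on their surroundings through cytokines such as interferon-gamma. In the wall of pulmonary arteries T-cells lie mainly in the adventitia, next to fibroblasts and macrophages, and the balance of CD4+ and CD8+ cells has been discussed as a part of the inflammation seen in pulmonary hypertension (PH).

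The dPAs came from male Holstein calves that were 2 weeks old, either control (CO) animals or animals with PH after 14 days in hypoxia. Small arteries of the right caudal lung lobe were dissociated into single cells, which were captured in droplets where each mRNA molecule received a unique molecular identifier (UMI) before sequencing. Of 3 CO and 3 PH calves, the T-cells of 5 are in the tables used here, and CO replicate 3 was not analysed here. Hypoxia and PH are the same animals, so that the effect of the low oxygen and that of the disease cannot be told apart.

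Subcluster 3 held 12 cells of CO replicate 1, 111 cells of CO replicate 2, 14 cells of PH replicate 1 and 36 cells of PH replicate 2. PH replicate 3 had 16 T-cells and none of them fell in subcluster 3. The subcluster thus rested on 4 calves, and CO replicate 2 alone gave 64.2% of its cells and 90.2% of its 123 CO cells. No cell barcode was shared between libraries. Values are given calf by calf below, and a calf with many cells was not given more weight than one with few. The exact permutation tests between CO and PH calves have 2 against 2 calves, where the smallest two-sided p they can reach is 0.333, so that none can pass 0.05. The test of shares has 2 against 3 calves and can go down to 0.1.

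The cells that the study describes as CD4+ or CD8+ are those of subclusters 1 to 3, and the share of subcluster 3 among them sets the one against the other. Subcluster 3 made up 12 of 41 of these cells in CO replicate 1 (29.3%, 95% exact binomial interval 16.1 to 45.5%) and 111 of 385 in CO replicate 2 (28.8%, 24.4 to 33.6%). It made up 14 of 103 in PH replicate 1 (13.6%, 7.63 to 21.8%) and 36 of 169 in PH replicate 2 (21.3%, 15.4 to 28.3%). In PH replicate 3 it had 0 of 13 cells, which allows a share of up to 23.1%. All 3 PH calves lay below both CO calves. The CO calves had a mean share of 29.0% ± 0.309 (SD, n = 2) and the PH calves one of 11.6% ± 10.8 (SD, n = 3). PH minus CO was -17.4 percentage points (exact permutation test, two-sided p = 0.2, adjusted p = 0.2 over 2 shares). Without PH replicate 3, whose 13 cells could not separate a share of 0 from that of PH replicate 2, the difference was -11.6 percentage points. With subcluster 4 kept in the denominator it was -16.2 percentage points (exact permutation p = 0.2). Cells of middle depth, from the 25th to the 75th percentile over all T-cells, had 3107 to 7300 UMIs. With these alone the difference was -26.7 (exact permutation p = 0.1). With subcluster 4 in the denominator it was -24.4 (exact permutation p = 0.2). No minimum of cells per calf was set here. The lower quartile of the 16 T-cells of PH replicate 3 was 7679 UMIs, so that its share rested on very few cells. In tissue that is dissociated, fewer cells of a type in the vessel and fewer cells of that type recovered cannot be told apart.

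The median depth of the cells differed more between calves than between subcluster 3 and the other T-cells of a calf. The median number of UMIs per cell in subcluster 3 was 6856 in CO replicate 1, 5590 in CO replicate 2, 4134 in PH replicate 1 and 3742.5 in PH replicate 2. The other T-cells of the same calves had medians of 6800.5, 5760, 4233 and 3740 UMIs. Subcluster 3 minus the others was thus 55.5, -170, -99 and 2.5 UMIs, above 0 in 2 calves and below 0 in 2. Both PH calves were shallower than both CO calves, with a difference of -2285 UMIs in the mean of medians (exact permutation p = 0.333, adjusted p = 0.667 over 6 measures). Depth therefore moves with the group in each comparison of CO and PH below, and its part was not tested.

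**Figure D1:**
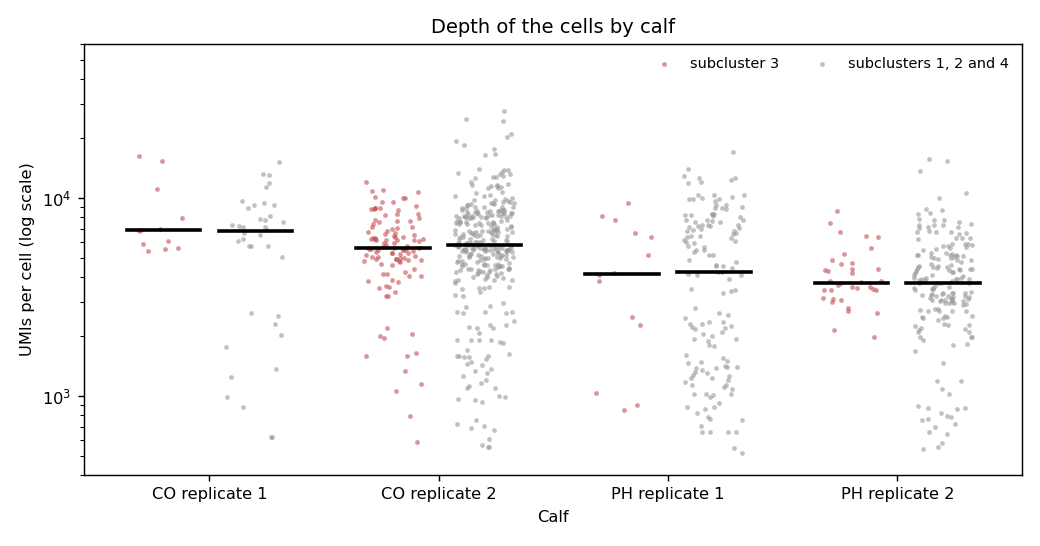
UMIs per cell on a log scale for each cell of subcluster 3 (red) and of subclusters 1, 2 and 4 (grey) in the 4 calves that have subcluster 3 cells, with the median as a black bar. The medians of the 2 populations lie side by side within each calf and are lower in the PH calves, while the shallowest cells are sparser in subcluster 3.

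The medians were alike, but the lower tail was not. The lower quartile of UMIs per cell was 5807.5, 4633, 2346 and 3347.5 in subcluster 3 of CO replicates 1 and 2 and PH replicates 1 and 2, against 2555.5, 4280, 1401.5 and 2688 in the other T-cells. It was higher in subcluster 3 in all 4 calves. The authors' cluster column at resolution 1.4 gives these T-cells only the numbers 12 and 33. In subcluster 3, cluster 33, here the low-depth cluster, had medians of 1151 UMIs and 17.1% of UMIs from mitochondrial genes. Cluster 12 had 5534.5 UMIs and 3.67%. The low-depth cluster held 13 of the 173 subcluster 3 cells (7.51%) and 118 of the 704 others (16.8%). By calf it held 0 of 12, 10 of 111, 3 of 14 and 0 of 36 subcluster 3 cells, in the order above. Of the other T-cells of these calves it held 10 of 38, 36 of 326, 47 of 143 and 24 of 181. Of the other subclusters, 5.19% of subcluster 1, 23.5% of subcluster 2 and 24.7% of subcluster 4 were in it. In depth subcluster 3 lay between its neighbours. Its median was 0.599 to 0.836 times that of subcluster 1 within the same calf, and 1.02 to 1.61 times that of subcluster 2.

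The number of genes detected per cell was slightly higher in subcluster 3 than in the pooled other T-cells of every calf, but not than in each subcluster. The median was 2124.5 genes in CO replicate 1, 1642 in CO replicate 2, 1535.5 in PH replicate 1 and 1268.5 in PH replicate 2. These medians exceeded those of the other T-cells by 19.5, 65.5, 299.5 and 108.5 genes. Subcluster 1 had more genes per cell than subcluster 3 in all 4 calves, with medians of 2375, 1690.5, 1609.5 and 1320, and subcluster 4 had more in CO replicate 1, with 2268. Subcluster 3 was above subcluster 2 in all 4 calves. The excess was larger in both PH calves than in both CO calves, with a difference of 161.5 genes that could not pass the test (exact permutation p = 0.333, adjusted p = 0.667 over 4 measures). It reversed to -85 genes among cells of middle depth and to -170 genes with means in place of medians. The median share of UMIs from mitochondrial genes was 2.36%, 3.74%, 3.59% and 4.39% in subcluster 3, and 2.53%, 3.46%, 2.64% and 4.41% in the other T-cells. It was above the other T-cells in CO replicate 2 and PH replicate 1 and below them in the other two calves.

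The rows that set subcluster 3 apart were few and steep. A row was counted where the mean of its deposited values in subcluster 3 differed from that in subclusters 1, 2 and 4 by at least 0.5 in the same direction in each of the 4 calves. The deposited values are natural logs of 1 plus a corrected count, in which SCTransform had rewritten the UMIs of a cell to those of a cell of typical depth. Of 6896 rows detected in at least 5% of either population, 11 were higher (0.16%) and 2 were lower (0.029%). The clusters had been formed from the expression of the same cells, in a column named for the RNA assay, so that these differences are a description of the subcluster and no test was made. The row just outside the limit reached a smallest difference of 0.48 on the higher side and -0.35 on the lower side. Without a limit on size, 826 rows (11.98%) were higher and 811 rows (11.8%) lower in all 4 calves.

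The leading higher row, the one with the largest smallest difference over calves, was detected in nearly every cell. It was above 0 in 91.7% of the subcluster 3 cells of CO replicate 1, 96.4% in CO replicate 2, 85.7% in PH replicate 1 and 97.2% in PH replicate 2. In the other T-cells of these calves it was above 0 in 39.5%, 41.1%, 30.1% and 19.3%. The mean corrected count per cell was 9.67, 15.5, 10.2 and 9.81 in subcluster 3 and 1.92, 2.92, 1.64 and 0.873 in the others, a ratio of 5.03 to 11.2. The lowest calf of subcluster 3 was thus above the highest calf of the other T-cells. This row was not particular to subcluster 3 in its presence. It was detected in 80%, 44.6%, 27.8% and 26.5% of subcluster 1 cells in CO replicates 1 and 2 and PH replicates 1 and 2. The 80% is of 5 cells. It was also in 23.1 to 49.2% of subcluster 2 cells per calf and in 4.17 to 33.3% of subcluster 4 cells.

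The row that ranked 2nd behaved alike. It was above 0 in 100%, 89.2%, 78.6% and 94.4% of subcluster 3 cells in CO replicates 1 and 2 and PH replicates 1 and 2, against 23.7%, 32.2%, 22.4% and 19.9% of the other T-cells. Among the neighbours, it was in 80%, 43.9%, 58.3% and 33.8% of the subcluster 1 cells of these calves. In subcluster 2 it was in 13.8 to 31.0% of cells per calf, and in subcluster 4 in 0 to 11.1%. The difference in mean deposited value from the pooled other T-cells was 1.30, 1.06, 1.04 and 1.15 in natural log units. Both leading rows were found together in most cells, in 11 of 12, 97 of 111, 10 of 14 and 33 of 36 cells.

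**Figure D2:**
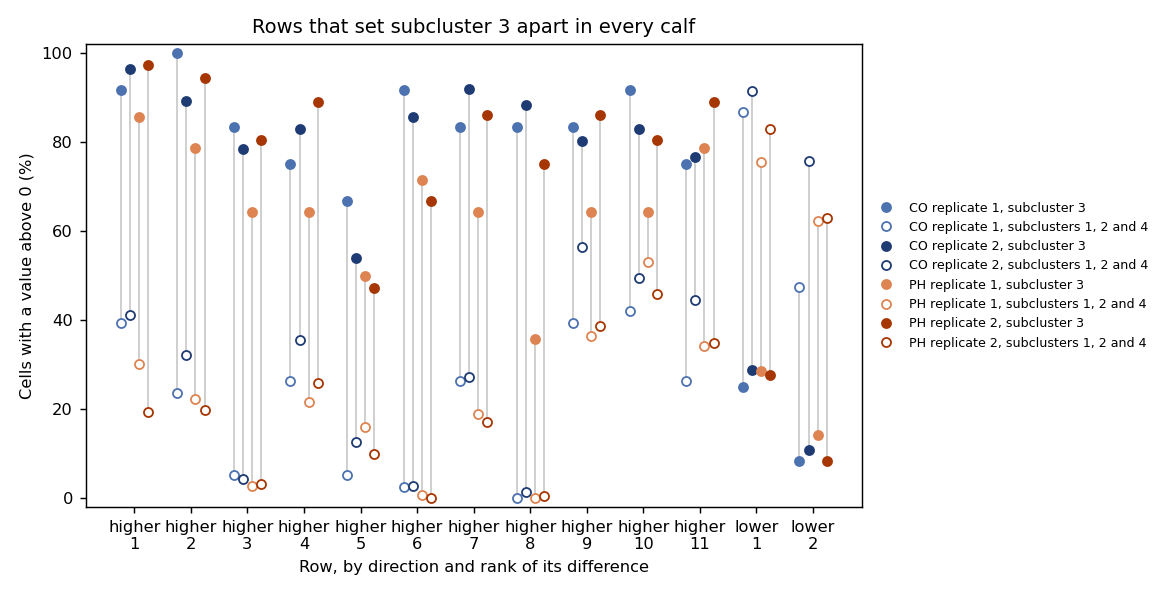
Percent of cells with a value above 0 for the 11 higher and 2 lower rows (x axis, by rank) in subcluster 3 (filled) and in subclusters 1, 2 and 4 (open), with 1 pair of points joined by a line for each of the 4 calves. The filled points lie above the open points of the same calf for each higher row and below them for both lower rows, and the rows ranked 3, 6 and 8 have open points near 0.

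Among the 11 higher rows, 3 were nearly absent from the other T-cells, and they are singled out here after their values were seen. The row ranked 3rd was above 0 in 64.3 to 83.3% of subcluster 3 cells per calf and in 2.80 to 5.26% of the other T-cells, with a ratio of mean corrected counts of 23.4 to 56.2. The row ranked 6th was above 0 in 91.7%, 85.6%, 71.4% and 66.7% of subcluster 3 cells against 2.63%, 2.76%, 0.699% and 0% of the others. The row ranked 8th was above 0 in 83.3%, 88.3%, 35.7% and 75% of subcluster 3 cells, and in 0 of 38, 5 of 326, 0 of 143 and 1 of 181 other T-cells. It showed the widest spread over calves of the 11, and PH replicate 1, with 5 of 14 cells, was its lowest calf.

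Other higher rows were shared with one or another neighbour. The row ranked 10th was above 0 in 64.3 to 91.7% of subcluster 3 cells but also in 86.5 to 100% of subcluster 4 cells, against 20 to 42.6% of subcluster 1 and 25 to 42.1% of subcluster 2. The row ranked 7th was in 66.7, 55.8, 22.2 and 29.2% of the subcluster 4 cells of CO replicates 1 and 2 and PH replicates 1 and 2, and in 0 to 27.8% of the cells of subclusters 1 and 2. Subcluster 4 was above both of them in 3 calves, and below subcluster 1 (27.8%) in PH replicate 1. By contrast the rows ranked 4th and 9th were in 50.0 and 65.5% of the subcluster 1 cells of CO replicate 2, in 33.3 and 65.1% of its subcluster 2 cells and in 0 and 9.62% of its subcluster 4 cells. In PH replicate 1 the mean deposited value of the row ranked 4th was 1.41 in subcluster 1 against 1.36 in subcluster 3. It was lower in subcluster 1 of CO replicates 1 and 2 and PH replicate 2, at 0.72, 0.91 and 0.59 against 1.18, 1.61 and 1.70. When the difference of 0.5 was asked against each of subclusters 1, 2 and 4 on its own, with at least 5 cells in each, 6 of the 11 higher rows and 1 of the 2 lower rows passed in all 12 pairs of calf and subcluster. Among cells of middle depth, 8 of the 11 and both lower rows passed.

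The leading lower row reached the widest difference of the 13 rows in a single calf, -2.07 in CO replicate 2. It was above 0 in 25%, 28.8%, 28.6% and 27.8% of subcluster 3 cells in CO replicates 1 and 2 and PH replicates 1 and 2, and in 86.8%, 91.4%, 75.5% and 82.9% of the other T-cells. The 4 calves were nearly level in subcluster 3. The smallest difference in mean deposited value was -1.31, in PH replicate 1, and the mean corrected count was 8.996 to 32.3 times higher in the other T-cells. It was found in 61.1 to 77.8% of subcluster 4 cells and in more of subclusters 1 and 2, so that subcluster 3 was the low one among all 4. The 2nd lower row was above 0 in 8.33%, 10.8%, 14.3% and 8.33% of subcluster 3 cells and in 47.4%, 75.8%, 62.2% and 63.0% of the others. Per calf it was in 88.9 to 100% of subcluster 1 cells, 33.3 to 60.3% of subcluster 2 and 55.6 to 64.6% of subcluster 4. Its mean deposited value was 0.46, 0.71, 0.49 and 0.34 in subcluster 2, nearer to the 0.06, 0.14, 0.16 and 0.09 of subcluster 3 than subclusters 1 and 4 were.

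Subcluster 3 cells that did have the leading lower row had little of it. Its mean corrected count where above 0 was 1.33, 2.81, 2.25 and 3.50 in subcluster 3 and 12.4, 16.8, 10.7 and 10.6 in the other T-cells. These 49 cells (28.3%) carried the higher rows of the subcluster too. They had a median of 9 of the 11 higher rows against 10 in the 124 cells without the lower row, and all 49 had the leading higher row. Their median depth was 5409 UMIs against 5315.5 with the cells of all calves pooled, but within calves it was mostly lower. It was 5569 against 6969 in CO replicate 1, 4134 against 5086 in PH replicate 1 and 3492.5 against 4007.5 in PH replicate 2. Only in CO replicate 2 was it higher, at 5902.5 against 5492.

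The 11 higher rows were chosen from these same cells, so that a separation by them was set by that choice. Their numbers per cell are a description. The median cell of subcluster 3 had 9.5 of them in CO replicate 1, 9 in CO replicate 2, 8 in PH replicate 1 and 9 in PH replicate 2. The median of the other T-cells was 2.5, 3, 2 and 2. At least 6 of the rows were present in 162 of 173 subcluster 3 cells (93.6%) and in 46 of 688 other T-cells of these calves (6.69%), and at least 9 in 116 and 1 cells. By calf, at least 6 were present in 91.7%, 93.7%, 78.6% and 100% of subcluster 3 cells, in the same order of calves. In the other T-cells it was 7.89%, 8.90%, 7.69% and 1.66%. No subcluster 4 cell of these calves had more than 5. Together the 11 rows made up 1.07% of the corrected counts of subcluster 3 and 0.192% of those of the other T-cells. The number of rows per cell was higher in the deeper cells of 3 calves. In PH replicate 1 the 7 shallower cells had a median of 6 rows at 2292 UMIs and the 7 deeper cells 10 rows at 6651 UMIs. The shallower and deeper cells had 9 and 10.5 rows in CO replicate 1, 9 and 10 in CO replicate 2, and 9 each in PH replicate 2.

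**Figure D3:**
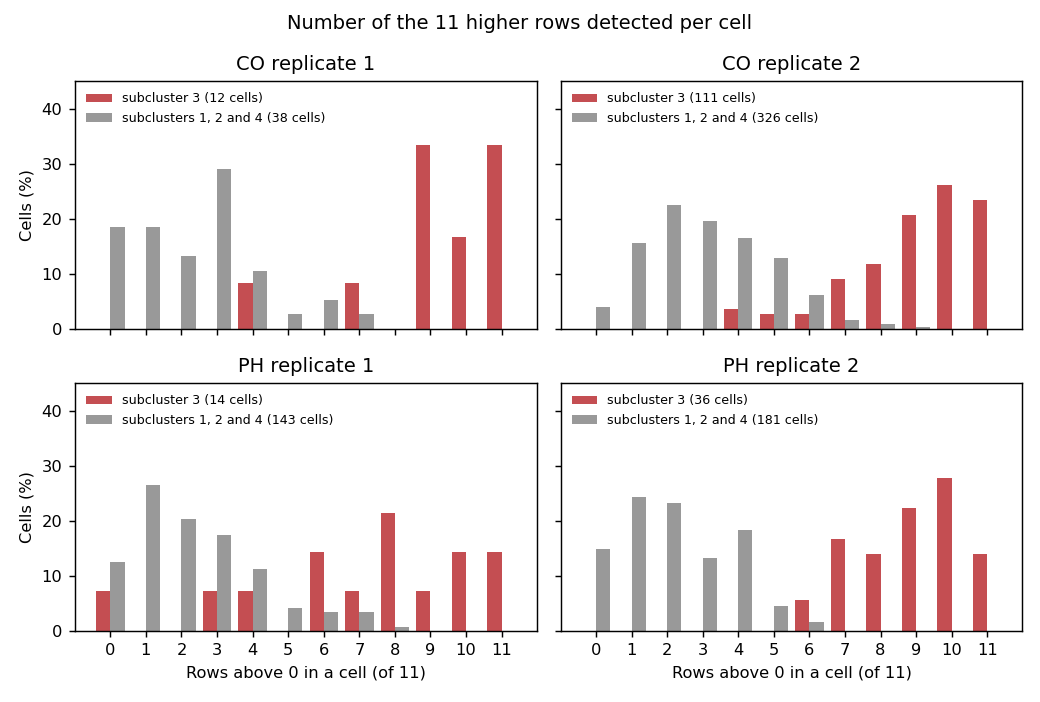
Share of cells (y axis, %) by how many of the 11 higher rows were above 0 in the cell (x axis), for subcluster 3 (red) and subclusters 1, 2 and 4 (grey) in each of the 4 calves. Subcluster 3 cells gather at 6 to 11 rows and the other T-cells at 0 to 5, with the widest overlap in PH replicate 1. The rows were chosen from these same cells.

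Some rows were found in subcluster 3 and nowhere else among the 877 T-cells. Of 13663 rows with any value above 0, 300 were confined to subcluster 3, of which 230 were seen in a single cell and 3 in at least 10 cells. Each subcluster had such rows, 448 in subcluster 1, 403 in subcluster 2 and 286 in subcluster 4, where the widest were in 9, 7 and 20 cells. The widest was above 0 in 46 cells (26.6%), namely 4, 33, 3 and 6 cells of CO replicates 1 and 2 and PH replicates 1 and 2, with a mean corrected count of 3.67 where present. The next were in 29 cells (2, 17, 2 and 8) and in 14 cells (4, 7, 1 and 2). All 3 were thus present in each of the 4 calves, and the 0 of 704 other cells allows a share of up to 0.426%. In total, 71 cells (41.0%) had at least 1 of the 3 rows, 18 had at least 2 and no cell had all 3. Per calf at least 1 of them was present in 66.7%, 39.6%, 35.7% and 38.9% of cells.

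The reverse was seen as well. No value above 0 was found in subcluster 3 for 2242 rows, although 1770 of these were in at most 4 other cells and so could hardly have been seen. The widest was in 157 of the 704 other T-cells (22.3%), in 33.3% of subcluster 1, 23.5% of subcluster 2 and 2.41% of subcluster 4. The next was in 23.7% of subcluster 1, 25% of subcluster 2 and 0 cells of subcluster 4. The 0 of 173 cells of subcluster 3 allows a share of up to 1.73%. Both rows were thus mainly rows of subclusters 1 and 2.

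Over all rows together subcluster 3 was close to its neighbours. Across 6328 rows detected in at least 5% of all T-cells, the mean deposited values of subcluster 3 and of another subcluster of the same calf had a Pearson correlation of 0.922 to 0.968 and a Spearman correlation of 0.658 to 0.821 in the 10 pairs with at least 10 cells on each side. These are correlations across genes, which are not independent replicates. In CO replicate 2 and PH replicate 2, the calves with the most cells, the Pearson correlation was highest with subcluster 2 (0.968 and 0.965) and within 0.01 of it with subclusters 1 and 4, while the Spearman correlation was highest with subcluster 1 (0.821 and 0.746). After the mean of each calf was taken out, the pattern of subcluster 3 recurred between calves, with Pearson correlations of 0.361 to 0.688 in the 6 pairs of calves (median 0.468). As the clusters were formed from the expression of the same cells, this is a description.

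The authors gave each cell a cell cycle phase and S and G2/M scores, which compare genes of these phases with background genes. The share of cells called S was higher in subcluster 3 than in the other T-cells of every calf, at 58.3%, 59.5%, 42.9% and 47.2% against 39.5%, 43.3%, 30.8% and 37.0% in CO replicates 1 and 2 and PH replicates 1 and 2. The share called G1 was lower in every calf, at 8.33%, 9.91%, 0% and 11.1% against 10.5%, 14.7%, 23.8% and 17.7%. This did not hold against each subcluster, since the G1 share was 5.41% and 4.41% in subcluster 1 of CO replicate 2 and PH replicate 2, and 0% in the 9 cells of subcluster 4 of CO replicate 1. The 95% exact intervals of the S shares of both populations overlapped in 3 calves, while in CO replicate 2, with 111 cells, they were 49.7 to 68.7% and 37.8 to 48.8% and did not overlap. In subcluster 1 of CO replicate 2 the S share was 54.7% (46.3 to 62.9%). The intervals count cells, which are not replicates, in clusters formed from the expression of the same cells. They are a description and no test. Against each single subcluster the S share of subcluster 3 was also the higher one in all 12 pairs, but in PH replicate 1 it was 42.9% against 42.6% in subcluster 4.

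**Figure D4:**
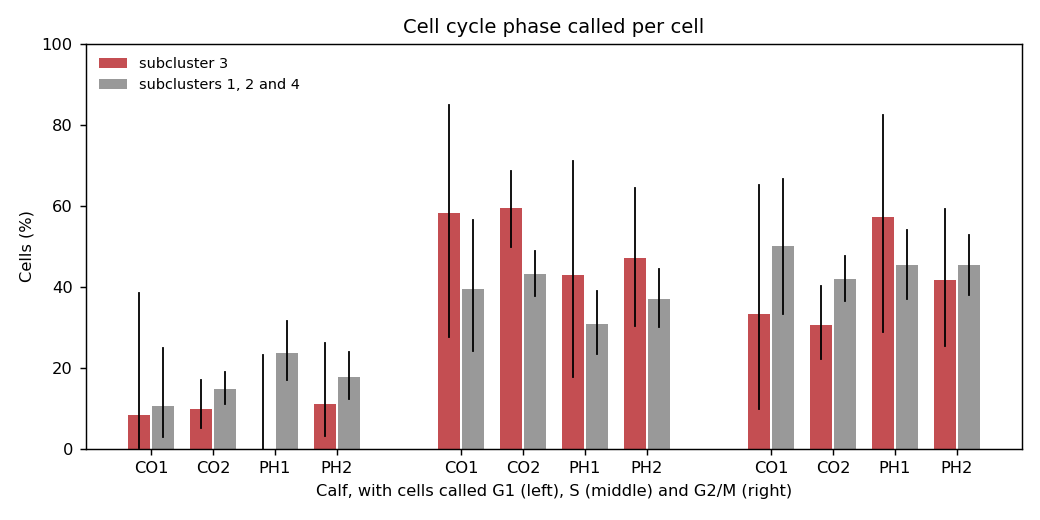
Percent of cells called G1 (left), S (middle) and G2/M (right) in subcluster 3 (red) and in subclusters 1, 2 and 4 (grey) of CO replicates 1 and 2 (CO1, CO2) and PH replicates 1 and 2 (PH1, PH2), with 95% exact binomial intervals. The red bars are above the grey bars of the same calf for S and below them for G1 in all 4 calves, with wide intervals in CO1 and PH1.

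A phase call need not mark a cycling cell, since a small score is enough to make one. The mean S score of subcluster 3 was 0.0438, 0.0477, 0.0189 and 0.0325, against 0.0155, 0.0369, 0.00989 and 0.0262 in the other T-cells. It was above the pooled other T-cells in each calf but below subcluster 1, whose means were 0.0494, 0.0756, 0.0190 and 0.0407. Subcluster 4 was also above it in both PH calves, at 0.0252 and 0.0334. Scores above 0.2 for S or G2/M were seen in 8 of 173 cells, 7 of them of CO replicate 2 and 1 of PH replicate 1, and the highest S score was 0.406. Such cells were 5.69% of the subcluster in CO and 2% in PH, against 6.04% and 2.06% of the other T-cells and 11.1% and 3.42% of subcluster 1. Over calves the mean S score was 0.0458 ± 0.00274 (SD, n = 2) for the CO animals against 0.0257 ± 0.00968 (SD, n = 2) for the PH animals (exact permutation p = 0.333, adjusted p = 0.667). The G1 share of subcluster 3 minus that of the other T-cells was -2.19 and -4.81 percentage points in the CO calves and -23.8 and -6.57 in the PH calves, a difference of -11.7 that 2 against 2 calves cannot separate (exact permutation p = 0.333, adjusted p = 0.667 over 4 measures). It rested largely on PH replicate 1, without which it was -3.06, and it was -20.3 without PH replicate 2. Free RNA and the fewer shallow cells of subcluster 3 can also enter these calls, and their part was not tested.

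Between CO and PH calves the level of each row in subcluster 3 was compared with limma on 1 mean value per calf, for the 6430 rows detected in at least 5% of subcluster 3 cells. No row reached a Benjamini-Hochberg adjusted p under 0.05 (0%), and the smallest adjusted p was 0.120. In limma without trend and robust the smallest adjusted p was 0.775. At an unadjusted p under 0.05, 528 rows differed (8.21%), of which 45 (0.7%) were higher and 483 (7.51%) lower in PH. Most rows leaned to lower values in PH, 70.9% of them, with a median difference of -0.04 in natural log units. The values of the CO and PH calves did not overlap for 2545 rows (39.6%), 451 of them higher (7.01%) and 2094 lower (32.6%) in PH. The mean over rows was 0.321 and 0.266 in CO replicates 1 and 2 and 0.253 and 0.231 in PH replicates 1 and 2, in the same order as the depth of the calves. After quantile normalization, which gives each calf the same distribution of values, 51.6% of rows were lower in PH and 151 rows higher against 180 lower passed an unadjusted p of 0.05, again with 0 rows at the adjusted threshold. An even balance is what this normalization itself brings about. With cells of middle depth alone 61.2% of rows were lower in PH, 15 higher and 155 lower passed an unadjusted p of 0.05, and none passed the adjusted one. The count of called rows also hung on single calves, and was 148 (6 higher and 142 lower) without CO replicate 2, a fit in which CO is 1 calf of 12 cells whose spread is taken from the other group.

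**Figure D5:**
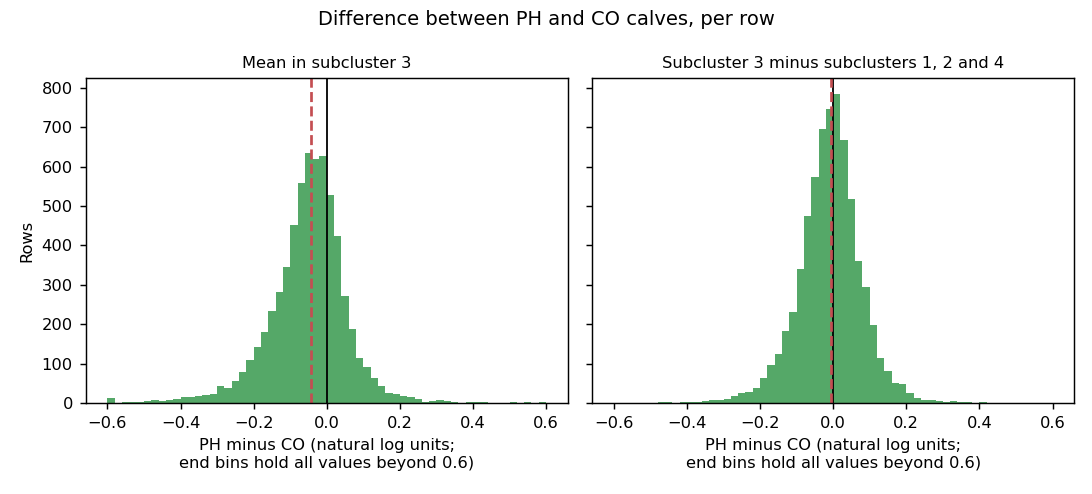
Number of rows (y axis) by difference between PH and CO calves in natural log units (x axis) for the mean in subcluster 3 (left) and for the difference between subcluster 3 and subclusters 1, 2 and 4 of the same calf (right), with 0 as a solid line and the median as a dashed line. The left panel leans to negative values with a median of -0.04, and the right panel is centred near 0.

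The 2 leading rows in each direction were taken by smallest p among rows whose CO and PH calves did not overlap. Their separation of the calves was thus set by that choice. Of those lower in PH, the row with the smallest p was the 8th of the higher rows, one of the 3 nearly absent from other T-cells. Its mean deposited value was 1.79 in CO replicate 1, 1.94 in CO replicate 2, 0.66 in PH replicate 1 and 1.26 in PH replicate 2. Both PH calves were below both CO calves, with a difference of -0.90 ± 0.21 (SE) in natural log units (limma, adjusted p = 0.120). This SE is limma's, which borrows spread from all rows, while the SDs over the calves of this row were 0.108 in CO and 0.427 in PH. As the other T-cells had close to none of it, the difference was as large, -0.90, when they were subtracted within each calf (limma, adjusted p = 0.987). The row ranked 6th among the higher rows also had no overlap, at 1.2 and 1.16 in CO against 0.72 and 0.71 in PH (difference -0.46, limma adjusted p = 0.589).

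The row with the 2nd smallest p among those lower in PH was no marker of the subcluster. Its mean was 2.41, 1.75, 1.07 and 1.32 in subcluster 3 and 1.84, 1.35, 1.05 and 0.89 in the other T-cells, lower in both PH calves in both populations. The difference in subcluster 3 was -0.88 ± 0.21 (SE; limma, adjusted p = 0.120). Of the rows higher in PH, the leading one had means of 1.34 and 1.82 in CO and 2.74 and 2.1 in PH (difference 0.84, limma adjusted p = 0.174), and it was likewise higher in the other T-cells of the PH calves, at 1.62 and 1.77 against 2.89 and 2.08.

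The 2nd row higher in PH was again one that the other T-cells lacked. It was above 0 in 1 of 12 and 5 of 111 subcluster 3 cells of the CO calves and in 6 of 14 and 13 of 36 cells of the PH calves, or 8.33%, 4.50%, 42.9% and 36.1%. In the other T-cells it was above 0 in 1 of 688 cells of the same calves. The mean deposited values were 0.12, 0.07, 0.85 and 0.46 (difference 0.56, limma adjusted p = 0.174). The row was picked among those higher in PH without overlap of the calves. Its direction and its separation of the calves were thus set by that choice. This row did not pass the threshold over all rows, and the part of depth was not tested.

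Over the 13 rows that set the subcluster apart, 0 passed the adjusted threshold and 2 an unadjusted p under 0.05, against 8.21% of all rows. Of these rows 1 was higher and 5 were lower in PH without overlap, against 7.01% and 32.6% of all rows. The 11 higher rows had a median difference of -0.15, with 8 of 11 below 0, while the median of all rows was -0.04 and 70.9% of all rows were below 0.

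Whether CO and PH differed otherwise in subcluster 3 than in the other T-cells was asked with the within-calf difference, subcluster 3 minus subclusters 1, 2 and 4, over 6896 rows. This difference takes out what the T-cells of a calf have in common, but the mix of the other T-cells differed between calves. Subcluster 4 made up 9 of 38 and 52 of 326 of them in CO replicates 1 and 2. In PH replicates 1 and 2 it made up 54 of 143 and 48 of 181. No row reached an adjusted p under 0.05 (limma, 0%, smallest adjusted p 0.987). None did with equal weight of subclusters 1, 2 and 4 either (limma, smallest adjusted p 0.982). At an unadjusted p under 0.05, 233 rows differed (3.38%), of which 93 (1.35%) were higher and 140 (2.03%) lower in PH. The lean to lower values was small, with 53.5% of rows below 0 and a median of -0.0063. Rows without overlap numbered 2137 (31%), 941 higher (13.6%) and 1196 lower (17.3%). Of the 13 rows that set the subcluster apart, 2 were higher and 4 lower without overlap. The leading lower row was one of the 2, at -1.78 and -2.07 in the CO calves and -1.31 and -1.38 in the PH calves, a difference of 0.58 ± 0.23 (SE; limma, adjusted p = 0.987). Its level in subcluster 3 itself was 0.21, 0.33, 0.31 and 0.34, while that in the other T-cells was 1.99, 2.4, 1.61 and 1.72. Subcluster 3 was thus nearly level over the calves, and the CO and PH calves were apart in the pooled other T-cells. In subcluster 1 alone the groups overlapped, at 1.79 and 2.41 in the CO calves and 2.17 and 1.94 in the PH calves. In subcluster 2 they were apart, at 2.28 and 2.88 against 1.91 and 2.14. In subcluster 4 they were apart too, at 1.31 and 1.26 against 0.94 and 0.84. The part of the subcluster mix was not tested.

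For this comparison too, single rows were taken among those whose CO and PH calves did not overlap. The 2 with the smallest p in each direction had smaller differences than the rows that set the subcluster apart. The within-calf difference of the leading row was -0.12 and -0.06 in the CO calves and 0.10 and 0.13 in the PH calves (difference 0.20 ± 0.05, SE). That of the next was -0.33 and -0.24 against 0.04 and 0.04. On the lower side it was 0.27 and 0.09 against -0.20 and -0.13 for the leading row, and 0.14 and 0.08 against -0.11 and -0.16 for the next. All 4 changed sign between the groups and had an adjusted p of 0.987 (limma).

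Rows present in one group and absent in the other were more numerous on the side with more and deeper cells. In the 123 CO cells 11025 rows were above 0, of which 2532 (23.0%) were not seen in the 50 PH cells, and in the PH cells 8889 rows were above 0, of which 396 (4.45%) were not seen in the CO cells. Rows in more than 10% of CO cells were missed in PH in 36 of 4641 cases (0.776%), and those in at most 1% of CO cells in 1116 of 1512 (73.8%). None of the 3557 rows in more than 10% of PH cells was missed in CO. Between calves of like cell number, 28.6% of the rows of CO replicate 1 (12 cells) were not seen in PH replicate 1 (14 cells), and 17.3% the other way round.

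The widest row of CO that was not seen in PH marked a calf and not a group. It was above 0 in 98 of 111 subcluster 3 cells of CO replicate 2, in 1 of 12 of CO replicate 1 and in 0 of 50 PH cells. The other T-cells showed the same, with 281 of 326 cells in CO replicate 2, 2 of 38 in CO replicate 1 and 0 of 340 in the PH calves. The next such row was in 23 of 111 and 1 of 12 CO cells, and in 3 of 143, 4 of 181 and 1 of 16 other T-cells of PH replicates 1, 2 and 3, so that it was not missing from the PH calves. The third was more even, in 5 of 12 and 15 of 111 CO cells, and it too was found in other T-cells of PH replicates 1 and 2, in 12 of 143 and 13 of 181. The widest row of PH that was not seen in CO was in 5 cells, all of PH replicate 2.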

How the data were processed

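According to the methods and the submitters' processing notes, the authors processed the reads with Cell Ranger 2.1.1 and Seurat 4.0 on bovine build ARS-UCD1.2, took the cells positive for general T-cell markers, applied SCTransform and formed clusters. The deposited expression values are natural log values, ln(corrected count + 1), and each of them gave back a whole corrected count within 1e-06. The authors also deposited per cell the counts of UMIs and genes, the mitochondrial percent, and the S and G2/M score. The subcluster is the column equal, in 877 of 877 cells, to the clustering at resolution 0.6 named for the RNA assay. No UMI counts per gene were used here, which left out count models and thinning of cells to 1 depth. The authors' treatment of doublets is not given in the sources used here. Doublets were not called anew.

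Groups and replicate numbers came from the sample labels and cells were assigned to calves by the calf named with each cell, with 0 columns left over. The calf was the replicate, with at least 10 cells. Each sample is a separate animal by its label. Row means per calf were fitted with limma 3.58.1 in R 4.3.3 (lmFit, eBayes with trend and robust) and adjusted over all rows fitted. The SE given for a row is limma's, moderated over all rows, and is not the spread of the calves of that row alone. Single values were compared with two-sided exact permutation tests over all splits of the calves, adjusted by Benjamini-Hochberg within families of 2, 4 or 6 measures. Shares have 95% Clopper-Pearson intervals (scipy 1.17.1), and 0 cells a limit of 3 cells, which cover counting error alone. The fit was tested on simulated data.

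The members, the rules and the lists were chosen with earlier results of these data known. Marker lists for T-cells and other cell types had been written but gave no result, since rows carry no names. Rows described singly were the 2 leading ones in each direction. Between CO and PH these were taken among rows whose CO and PH calves did not overlap. The rows ranked 3rd to 10th among the higher rows, the confined or absent rows and those seen in 1 group were described after their values were seen. Alternatives were the replicate number as a block, 1 calf left out at a time, log2 with a pseudocount of 0.1 or 1 after scaling to 10000, shares of cells above 0 in place of means, filters of 3 cells or 20%, cell numbers as weights, quantile normalization, limma without trend and robust, other limits on the difference, means in place of medians and cells of middle depth. The authors' clusters were also taken without the low-depth cluster, an alternative chosen after seeing the data.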

Additional observations from a re-analysis of the deposited data

How the results depend on the processing

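Of 132 alternative values for 16 results, 108 were counted as unchanged. For the differences between PH and CO in shares and single values this meant the same direction, whatever the size. For counts of rows it meant a count of like size. With 1 calf left out, the difference between PH and CO ran from -0.0764 (without PH replicate 1) to 0.894 for the gap in mitochondrial percent, and from -9.12 to 1.99 percentage points (without PH replicate 1) for the G1 share of subcluster 3. For the UMI gap, 9 as reported, it ran from -104 (without CO replicate 2) to 122, with -41.8 without PH replicate 2, and was -789 with means. For the gene gap it was -170 with means and -85 at middle depth. For the G2/M score, -0.00802 as reported, it ran from -0.0187 to 0.00265 (without CO replicate 1) and was 0.00309 at middle depth. The difference in the G1 gap, -11.7 as reported, became -3.06 when PH replicate 1 was left out and -20.3 when PH replicate 2 was. None of these could pass its exact permutation test in any setting. The share of subclusters 1 to 3 moved from -17.4 to -26.7 percentage points at middle depth, where very few cells of PH replicate 3 were left. The 13 rows that set subcluster 3 apart became 52 with a limit of 0.25, 3 with a limit of 1, 115 (60 higher, 55 lower) on a log2 scale with a pseudocount of 0.1, and 7 against each subcluster, and they were 14 to 17 with 1 calf left out, since fewer calves then had to pass. The 300 confined rows became 470 at middle depth, where fewer other cells were searched. The 0 rows called between CO and PH by limma became 1 to 148 with 1 calf left out, namely 1 without CO replicate 1, 148 without CO replicate 2, 2 without PH replicate 1 and 4 without PH replicate 2. They became 5 with cell numbers as weights, 3 with a pseudocount of 0.1 and 3 with 1. For the gap to the other T-cells the 0 rows became 0 to 49, with 14 without PH replicate 1 and 49 without PH replicate 2. In these fits a lone calf is assumed to vary like the calves of the other group. With the replicate number as a block, 5 rows (2 higher, 3 lower) were called for the level and 0 for the gap. Calves of the same number did not deviate together beyond a correlation of 0.121 for the level and 0.0294 for the gap over 2 pairs, and nothing in the labels ties them, so that they share only a number. A pseudocount of 0.1 moved the median of all rows to -0.26 (log2). The causes were not tested. Depth and the 12 to 14 cells of CO replicate 1 and PH replicate 1 limit each row: at 12 cells a count of 0 allows a share of up to 25%.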
